A study of Mus musculus with 8 samples.

Results

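The core clock genes of the mouse are the transcription factor and repressor genes whose feedback sets daily rhythms in nearly every cell. The 10 described here were Arntl, Clock, Npas2, Cry1, Cry2, Per1, Per2, Per3, Nr1d1 and Nr1d2, matched by symbol among the 28732 genes of the deposited count table. All 10 were among the 15564 genes that passed the filter on low counts. RNA came from the cerebral cortex of 4 Tak1 conditional knockout libraries (genotype Cdh5-CreER::Tak1fl/fl) and 4 control libraries (genotype Tak1fl/fl). Both groups carried the floxed Tak1 alleles and were given tamoxifen, and their age was postnatal day 90 per the sample labels and 12 to 14 weeks per the series text. In Cdh5-CreER the promoter of the endothelial cadherin gene drives a recombinase that tamoxifen activates, so the deletion is aimed at the cells that line blood vessels, while the RNA came from the whole tissue. Knockout libraries carry the numbers 2 to 5 and control libraries the numbers 1 to 4, as in the deposited table. The sample titles number the knockouts differently, and numbered libraries were not matched to single titled samples. Nothing in the labels ties a library to an animal of its own, and the p-values therefore cover the spread between libraries alone, which may be technical. The time of day at which tissue was taken is not given in the sources used here.

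In the main loop of the clock, the proteins of Arntl (BMAL1) and of Clock or its paralog Npas2 pair and switch on genes that carry E-boxes in their promoters. Among those genes are the Per and Cry genes, whose proteins return to the nucleus and block the activator pair. A second loop runs through the nuclear receptors of Nr1d1 and Nr1d2 (REV-ERB alpha and beta), which repress Arntl at sites where the ROR receptors activate it. Transcripts of many of these genes cycle over the day in the cortex as in other tissues. Per1 is in addition a gene that glucocorticoid hormones and cAMP signalling induce directly.

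Each library held between 13483354 and 17728963 counts, and single members had between 32 and 2938 counts in a library. Map3k7, which encodes TAK1, was at 38.8 ± 3.16 CPM in knockouts and 40.02 ± 2.89 CPM in controls (mean ± SD, n = 4 each), where CPM is the depth-scaled count after TMM normalization. The counts cover the whole gene in all cortical cells, so this level does not check an endothelial deletion. Cdh5, whose promoter drives the recombinase, was at 25.5, 16.8, 11.1 and 27.4 CPM in knockouts 2 to 5 and 9.28 to 11.3 CPM in controls. Markers of cortical excitatory neurons were high in both groups, with summed levels of 2729 to 4088 CPM in knockouts and 2647 to 3071 CPM in controls. The list for the suprachiasmatic nucleus, the hypothalamic pacemaker of the body, held 8 markers. Avp, Six6, Lhx1, Nms and Prok2 were too low to be tested, none above 1.22 CPM in any knockout or 0.863 CPM in any control. The other 3, Vip, Rorb and Six3, did not pass, at 22.4 to 26.9, 127 to 195 and 8.05 to 12.3 CPM in knockouts. In controls these markers were at 15.9 to 23.5, 154 to 206 and 8.54 to 10.4 CPM. Vip is also in the inhibitory neuron list and Rorb in the excitatory neuron list. Genes of other lists moved with the groups, in a test that called 3.44% of all tested genes higher and 2.99% lower. All lists were chosen with earlier results of these data known, so their counts beside these shares are a description. Of 13 glucocorticoid-induced genes other than Per1, 11 rose and none fell, and their summed level was 1146 to 1524 CPM in knockouts and 602 to 793 CPM in controls. Of 6 choroid plexus markers, 3 rose, with a summed level of 375 to 536 CPM in knockouts, against 186 CPM in control 4 and 12.04 to 18.3 CPM in the other controls, so control 4 stood apart from its group. Of 7 thalamic markers, Rora and Shox2 rose and none fell, and the sum was 278 to 312 CPM in knockouts and 222 to 254 CPM in controls. Of 5 oligodendrocyte markers, Mobp rose and none fell, and the sums, at 3052 to 3636 CPM in knockouts and 2517 to 3051 CPM in controls, nearly met. In the other cell type lists the summed levels overlapped, while Neurod6 of the excitatory neurons fell, Aldh1l1 of the astrocytes and C1qa of the microglia rose, and of the endothelial markers Cdh5 and Ly6c1 rose and Tek fell. Of the 15 activity-induced genes, Npas4 and Inhba fell and none rose. The 15 summed to 597, 511, 1053 and 565 CPM in knockouts 2, 3, 4 and 5. In controls the sum was 984 to 1074 CPM, so that of knockout 4 lay in the controls' range. The sum is set by the abundant genes. For both genes that fell, knockout 4 lay below every control, with Inhba at 14.0 against 22.4 to 25.8 CPM. For others, such as Egr1, at 183 against 138 to 156 CPM, it lay above every control. Which part these lists, or library 4, play in the clock gene values was not tested. In whole tissue, fewer cells of a type and less RNA per cell cannot be told apart.

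Of the 10 core clock genes, Per1 rose in the knockouts, none fell, and 9 did not pass in the quasi-likelihood test of edgeR at an adjusted p of 0.05. Among all tested genes the same test called 6.43%, with 3.44% higher and 2.99% lower. The log2 fold changes of the members ran from -0.31 for Per2 to 0.65 for Per1. Their median was 0.22, and that of all tested genes was -0.0021. Positive values were found for 8 members, where 49.8% of all tested genes had one, and negative values for Per2 and Nr1d2. At an unadjusted p below 0.05 there were 5 members, all with positive values, against 25.8% of all tested genes in either direction and 13.0% with positive values. The groups did not overlap for Per1 and Npas2, against 16.2% of all tested genes whose groups did not overlap. In the authors' deposited table, 2 of the 10 passed an adjusted p of 0.05, Per1 and Arntl, both higher, where 5.34% of the genes with an adjusted p in that table were called higher.

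**Figure D1:**
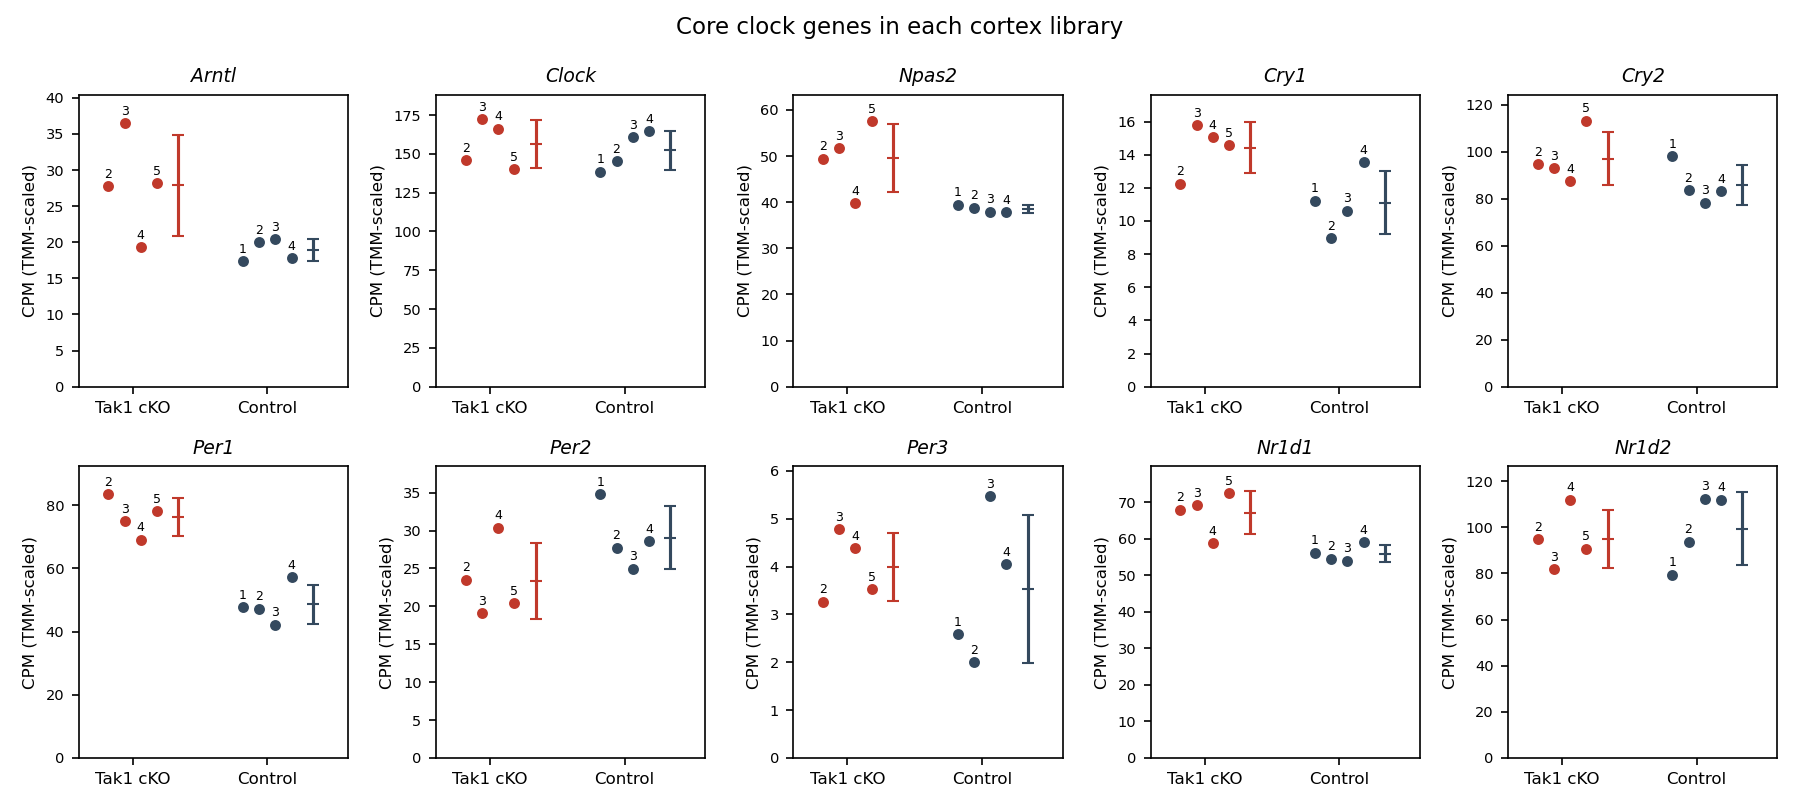
TMM-scaled CPM of the 10 core clock genes in each library, with Tak1 cKO left of Control in every panel; points are libraries with their number, and the bar beside them is the mean with its SD (n = 4). All 4 knockout points of Per1 and Npas2 lie above every control point, and knockout 4 lies at or nearest to the control points for Per1, Npas2, Arntl, Nr1d1 and Per2.

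The activators come first. Arntl (ENSMUSG00000055116, GRCm38 chr7:113207465-113314126, plus strand) encodes BMAL1, the obligate partner in the activator pair. Its level was 27.8, 36.5, 19.3 and 28.2 CPM in knockouts 2, 3, 4 and 5, and 17.4, 20.02, 20.4 and 17.8 CPM in controls 1 to 4. Knockouts 2, 3 and 5 stood above every control, and knockout 4 stood inside the control range. The log2 fold change was 0.56 ± 0.17 (SE), which did not pass in edgeR (adjusted p = 0.0658). The authors' deposited table gives Arntl 0.56 ± 0.18 with an adjusted p of 0.0311. Without knockout 4 it was 0.71 with an adjusted p of 0.00582 in edgeR, a value obtained by leaving out the knockout lowest in Arntl. Without knockout 3, the highest, the log2 fold change was 0.42 with an adjusted p of 0.106. Of the 8 fits that leave out 1 library, Arntl passed in 1, and the adjusted p in edgeR ran up to 0.16. Over the 16 alternative settings Arntl passed in 3.

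Npas2 (chr1:39193731-39363236) encodes the paralog of CLOCK that is found mainly in forebrain neurons. It was at 49.4, 51.6, 39.7 and 57.6 CPM in knockouts and 39.5, 38.8, 38.0 and 37.8 CPM in controls. Its controls were the most alike of any member, with a coefficient of variation of 2.04%, against 14.9% in knockouts. All knockouts lay above all controls, although knockout 4 did so by a small margin, and the change did not pass (0.36 ± 0.12, edgeR adjusted p = 0.0827). Without knockout 4 the adjusted p of Npas2 in edgeR was 0.0136. Of the 8 fits that leave out 1 library this was the 1 in which Npas2 passed, and the highest adjusted p was 0.229. Clock (chr5:76209868-76304792), the gene for the histone acetyltransferase partner of BMAL1, was at 146, 172, 166 and 140 CPM in knockouts and 138, 145, 161 and 165 CPM in controls. The ranges of Clock lay almost on top of each other, and its log2 fold change was 0.04 ± 0.10 (adjusted p = 0.868).

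Among the Period genes, which encode repressors, Per1 rose while Per2 and Per3 did not pass. Per1 (ENSMUSG00000020893, chr11:69095217-69109960, plus strand) was at 83.4, 74.9, 69.1 and 78.05 CPM in knockouts and 47.8, 47.2, 42.2 and 57.3 CPM in controls. Every knockout was above every control, and the lowest knockout was again number 4. Per1 averaged 76.4 ± 5.99 CPM in knockouts and 48.6 ± 6.28 CPM in controls (SD, n = 4 each), a 1.57-fold difference. On the log2 scale this was 0.65 ± 0.12 (SE), which passed in edgeR (adjusted p = 0.00999), and the authors' deposited table gives 0.65 ± 0.13 with an adjusted p of 8.59e-05. Leaving out control 2 left Per1 just short of passing (adjusted p = 0.0521), and it passed in the other 7 fits that leave out 1 library.

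RefSeq lists 2 transcription start sites for Per1, and their windows are shown because Per1 is the member that passed. Each runs from 250 bases before to 50 bases after the start, on the plus strand of GRCm38.p6, at chr11:69098699-69098998 for the first and chr11:69099902-69100201 for the second. Capitals mark matches to the motifs searched on both strands, which were the E-box CACGTG, the variant E-box CACGTT, the D-box as TTATGTAA or TTACGTAA, the ROR element core TAGGTCA, the cAMP response element TGACGTCA and the glucocorticoid response element.
Per1 first start: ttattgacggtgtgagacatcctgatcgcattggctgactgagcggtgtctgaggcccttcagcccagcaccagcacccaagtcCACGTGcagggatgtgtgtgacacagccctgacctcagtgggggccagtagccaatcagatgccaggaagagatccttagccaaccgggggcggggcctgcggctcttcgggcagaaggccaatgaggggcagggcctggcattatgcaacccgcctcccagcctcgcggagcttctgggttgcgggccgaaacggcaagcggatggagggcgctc
Per1 second start: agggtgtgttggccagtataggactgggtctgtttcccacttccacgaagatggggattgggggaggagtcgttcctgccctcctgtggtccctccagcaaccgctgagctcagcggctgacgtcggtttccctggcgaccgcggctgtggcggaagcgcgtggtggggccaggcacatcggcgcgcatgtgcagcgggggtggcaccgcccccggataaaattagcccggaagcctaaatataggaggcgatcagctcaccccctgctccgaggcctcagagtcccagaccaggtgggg
The first window held 1 E-box, 166 bases before the start, and the second held none of these motifs. E-boxes were in 7.15% of all 32851 windows of this length, and no match in the members overlapped another.

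Per2 (chr1:91415982-91459324) encodes the Period protein whose mutation shortens and then abolishes behavioural rhythms of mice in constant darkness. It was at 23.5, 19.1, 30.4 and 20.4 CPM in knockouts and 34.8, 27.7, 24.9 and 28.6 CPM in controls. Knockouts 2, 3 and 5 stood below every control, while knockout 4 stood above 3 of them. The log2 fold change was -0.31 ± 0.16, which did not pass (edgeR adjusted p = 0.245), and it was -0.45 with an adjusted p of 0.0549 without knockout 4. That was the lowest adjusted p of the 8 edgeR fits that leave out 1 library, and the highest was 0.505. Per3 (chr4:151003652-151044665), which in mice is dispensable for the core rhythm, was the least abundant member. It was at 3.27, 4.78, 4.39 and 3.53 CPM in knockouts and 2.59, 2.01, 5.47 and 4.05 CPM in controls. Its controls differed by more than its groups did, and its log2 fold change was 0.17 ± 0.29 (adjusted p = 0.766).

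Because both genes are counted in the same library, the ratio of Per1 to Per2 needs no scaling. The log2 ratio of their counts was 1.83, 1.97, 1.19 and 1.93 in knockouts and 0.46, 0.77, 0.76 and 1.00 in controls. All knockout ratios were above all control ratios, knockout 4 included. The difference was 0.98 ± 0.21 (SE), with a two-sided exact permutation p of 0.0286, which is the smallest that the 70 arrangements allow. Adjusted over the 6 paralog pairs compared, that p was 0.171, so the ratio did not pass the correction. The differences for the other pairs were 0.39 ± 0.39 for Per1/Per3, -0.59 ± 0.43 for Per2/Per3, 0.21 ± 0.18 for Cry1/Cry2, 0.32 ± 0.19 for Nr1d1/Nr1d2 and 0.32 ± 0.18 for Npas2/Clock. In each of these 5 pairs the groups overlapped, with adjusted exact permutation p between 0.286 and 0.4.

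**Figure D2:**
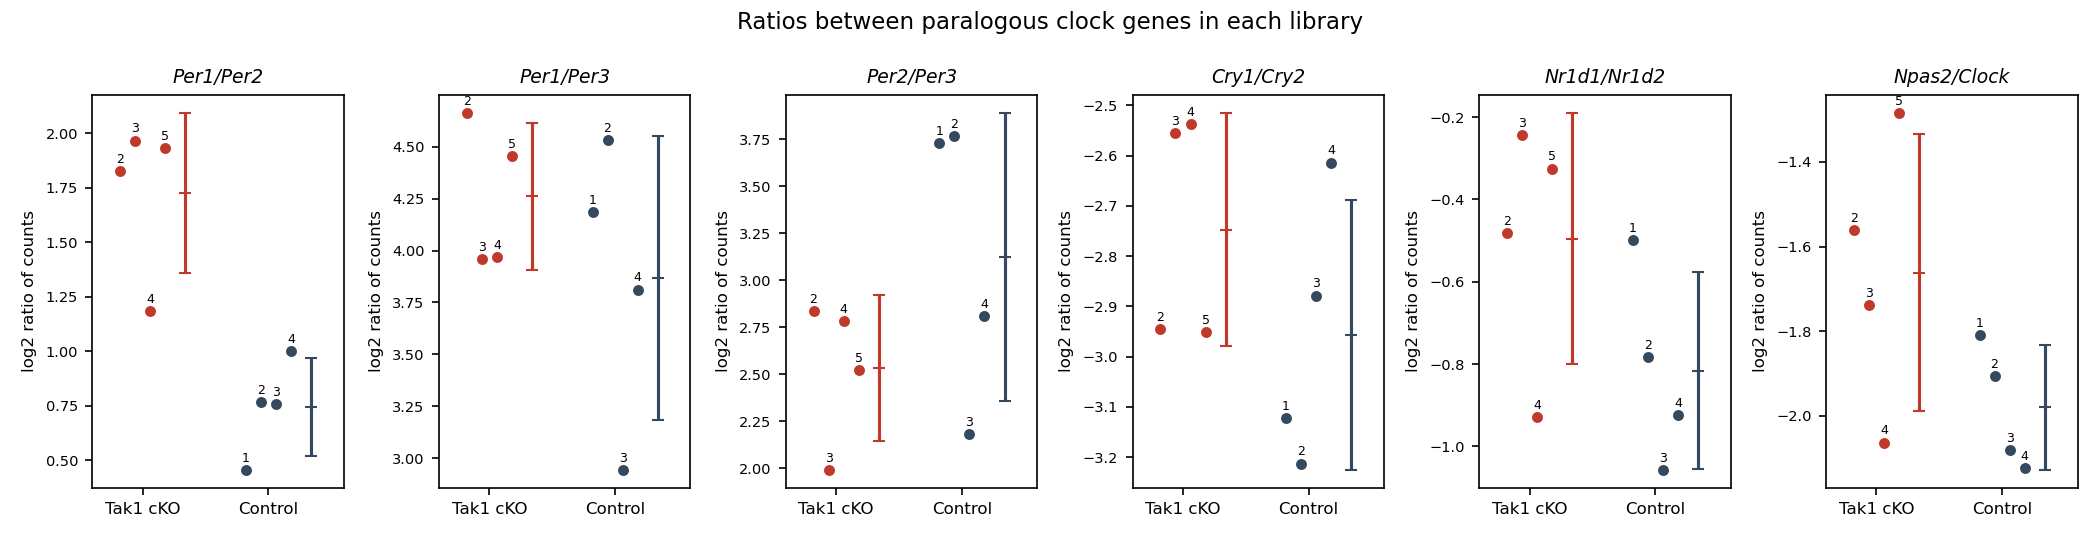
Log2 ratio of the counts of 2 paralogous clock genes in each library (counts plus 0.5), with Tak1 cKO left of Control; points are numbered libraries, bars are mean and SD (n = 4), and each panel has its own vertical axis that does not start at 0. The groups are apart in the Per1/Per2 panel, at 1.19 to 1.97 in knockouts and 0.46 to 1.00 in controls, and overlap in the other 5.

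The cryptochromes are the main repressors of the BMAL1 and CLOCK pair. Cry1 (chr10:85131700-85185064) was at 12.2, 15.8, 15.04 and 14.6 CPM in knockouts and 11.2, 8.98, 10.6 and 13.6 CPM in controls. Knockouts 3, 4 and 5 were above every control, and knockout 2 lay between controls 1 and 4. The change did not pass (0.38 ± 0.16, edgeR adjusted p = 0.148). Cry2 (chr2:92403646-92434043) was at 94.5, 93.02, 87.4 and 113 CPM in knockouts and 97.96, 83.5, 78.2 and 83.2 CPM in controls. Only knockout 5 was above the control range for Cry2, and the change was 0.18 ± 0.11 (adjusted p = 0.343). An antisense transcript gene, D930015M05Rik, overlaps 295 exon bases of Cry2, which is 4.67% of its merged exons. Whether strand was used in counting is not stated, so reads from that stretch cannot be assigned to a strand.

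The RefSeq window of Cry1 (minus strand, GRCm38.p6 chr10:85185005-85185304) is shown with that of the second start of Arntl (plus strand, chr7:113207261-113207560), as windows that hold the elements of the main and the second loop. Capitals mark motif matches as above.
Cry1: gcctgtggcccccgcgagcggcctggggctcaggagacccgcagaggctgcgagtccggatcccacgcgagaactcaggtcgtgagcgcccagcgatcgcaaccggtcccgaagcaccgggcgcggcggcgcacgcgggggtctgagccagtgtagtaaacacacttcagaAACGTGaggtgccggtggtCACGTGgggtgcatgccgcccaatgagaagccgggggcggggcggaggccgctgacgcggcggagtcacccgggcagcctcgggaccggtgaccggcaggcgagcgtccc
Arntl second start: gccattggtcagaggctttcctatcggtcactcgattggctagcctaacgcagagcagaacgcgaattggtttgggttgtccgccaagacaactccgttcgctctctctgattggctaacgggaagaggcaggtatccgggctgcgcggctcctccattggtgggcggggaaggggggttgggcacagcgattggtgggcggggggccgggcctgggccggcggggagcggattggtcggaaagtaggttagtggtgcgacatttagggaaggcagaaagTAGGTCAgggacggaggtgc
Cry1 held a variant E-box 79 bases and an E-box 60 bases before its start, and Arntl held the ROR element core 30 bases after its second start. The 9 members with a window, all but Per2, had 13 windows in all, and the shares given are per window, not per member. Of the 9, E-boxes were found in 2 (Per1 and Cry1) and variant E-boxes in 3 (Cry1, Cry2 and Nr1d1). The D-box was in Per3, where it occurs at 205 and 158 bases before the start, and the ROR core was in Arntl. Among all windows the variant E-box was in 4.68%, the D-box as TTATGTAA in 0.938% and the ROR core in 2.61%. The cAMP response element, found in 1.79% of all windows, and the glucocorticoid response element, found in 0.0396%, were in none of these windows of the members. With shares so small, their absence from a few windows says little. Only these letters were searched, and bases outside the windows were not.

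In the second loop, Nr1d1 (chr11:98767932-98775333), the gene for REV-ERB alpha, was at 67.9, 69.2, 58.8 and 72.4 CPM in knockouts and 56.2, 54.5, 54.0 and 58.97 CPM in controls. Knockouts 2, 3 and 5 were above every control, and knockout 4 lay just below the highest control. The log2 fold change was 0.26 ± 0.10, which did not pass (edgeR adjusted p = 0.123), and the adjusted p was 0.0465 without knockout 4. The highest adjusted p for Nr1d1 in the edgeR fits that leave out 1 library was 0.286. Nr1d1 shares 263 exon bases, 8.55% of its merged exons, with the thyroid hormone receptor gene Thra on the other strand, and without strand the reads of that stretch could belong to either gene. Nr1d2 (chr14:18204054-18239127), the gene for REV-ERB beta, was at 94.9, 81.9, 112 and 90.7 CPM in knockouts and 79.4, 93.8, 112 and 112 CPM in controls. Its groups overlapped throughout, with a log2 fold change of -0.07 ± 0.13 (adjusted p = 0.8003). Without knockout 4, 4 members rose in edgeR (Per1, Arntl, Npas2 and Nr1d1) and none fell, in a fit that called 6.4% of all genes higher and 6.6% lower. Arntl, Npas2 and Nr1d1 passed in none of the other fits that leave out 1 library.

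Levels of different genes were compared per kilobase of merged exons. In knockouts the highest mean was that of Nr1d1, at 21.8 ± 1.89 CPM per kb (SD, n = 4). Nr1d2 (17.5), Cry2 (15.4), Per1 (13.6), Clock (11.4) and Npas2 (10.3) followed, then Cry1 (4.32), Per2 (3.99), Arntl (3.71) and, far below, Per3 (0.415 CPM per kb). In controls the order was Nr1d2 (18.4 ± 2.94), Nr1d1 (18.2), Cry2 (13.6), Clock (11.1), Per1 (8.63), Npas2 (8.04), Per2 (4.96), Cry1 (3.32), Arntl (2.51) and Per3 (0.367 CPM per kb). Neighbours in the knockout order overlapped in their ranges except Npas2 with Cry1 and Arntl with Per3. In the control order Nr1d2 overlapped Nr1d1, Clock overlapped Per1, Per1 overlapped Npas2, and Cry1 overlapped Arntl, while the other neighbours were apart. The mean of Per1 stood above that of Clock in knockouts and below it in controls, at 12.3 to 14.8 against 10.2 to 12.6 CPM per kb in knockouts and 7.50 to 10.2 against 10.1 to 12.0 CPM per kb in controls. Merged exons include those of rarely used transcripts, so the per-length level of a gene with many annotated exons, such as Clock with 13727 exon bases, is set low.

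**Figure D3:**
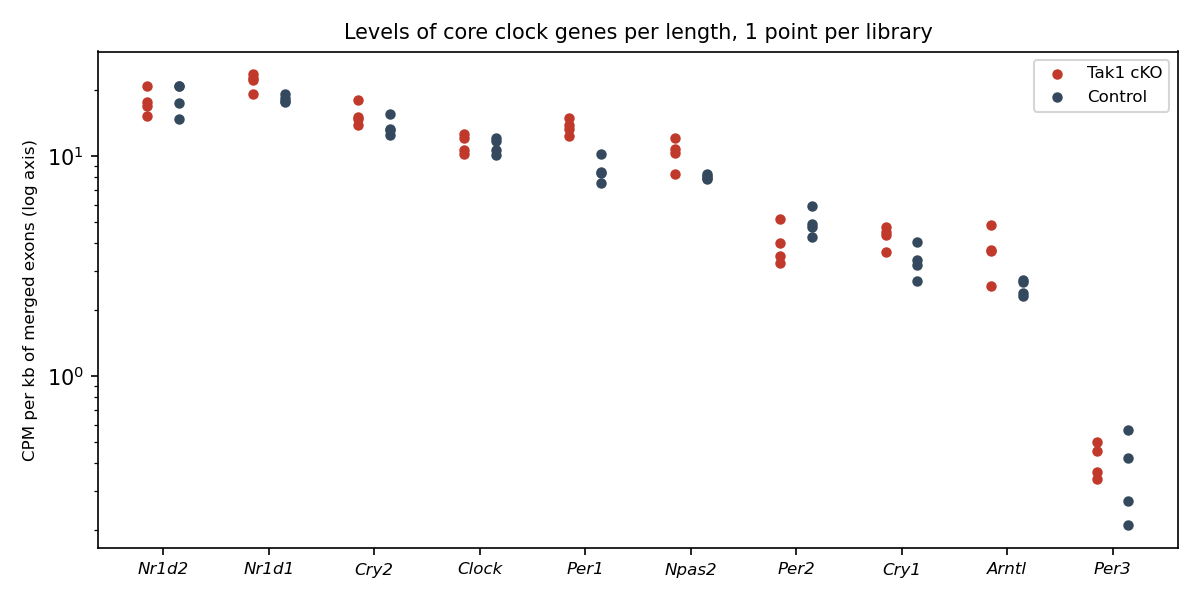
Level of each core clock gene in CPM per kb of merged exons on a log axis, 1 point per library, with Tak1 cKO left of Control for each gene. Genes are ordered by their control mean, from Nr1d2 at 18.4 to Per3 at 0.367 CPM per kb, and the knockout points of Per1 lie above its control points.

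Other genes of the clock were taken from 3 lists of 32 genes, of which 31 were tested. Of these, 4 rose, 1 fell and 26 did not pass in edgeR, where 3.44% of all genes were called higher and 2.99% lower. The log2 fold changes of the 31 had a median of 0.09. The output factors bind D-boxes: Dbp, Tef and Hlf activate there, and Nfil3 (E4BP4) represses. Dbp, a direct target of the BMAL1 and CLOCK pair, fell to 56.6, 47.2, 64.8 and 62.98 CPM in knockouts, against 87.9, 86.5, 81.2 and 86.2 CPM in controls. All knockouts were below all controls, and the log2 fold change was -0.56 ± 0.11 (edgeR adjusted p = 0.0159). Hlf rose to 245, 196, 224 and 264 CPM in knockouts, against 141, 143, 167 and 193 CPM in controls, again without overlap, although knockout 3 and control 4 nearly met (0.53 ± 0.13, edgeR adjusted p = 0.0286). Tef (0.39 ± 0.13, adjusted p = 0.0761) and Nfil3 (0.79 ± 0.29, adjusted p = 0.108) did not pass. Leaving out knockout 2 or control 2 left Dbp short of passing (adjusted p = 0.0513 and 0.0648), and Hlf did not pass without knockout 2 or 5 or control 1, 2 or 3 (adjusted p from 0.0655 to 0.11).

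**Figure D4:**
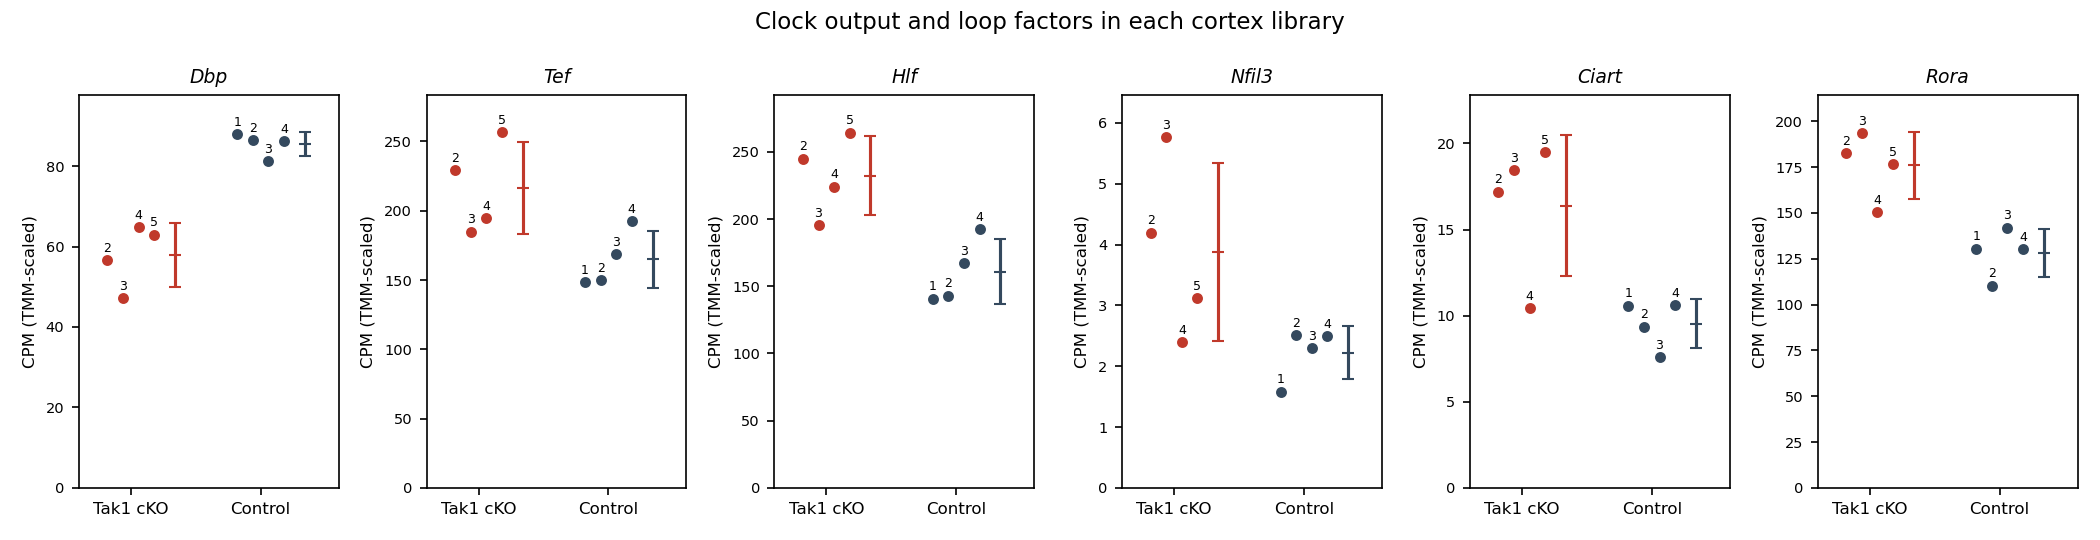
TMM-scaled CPM of the D-box factors Dbp, Tef, Hlf and Nfil3 and of the loop factors Ciart and Rora in each library, with Tak1 cKO left of Control; points are numbered libraries and bars are mean and SD (n = 4). Knockout points lie below the control points for Dbp, at 47.2 to 64.8 against 81.2 to 87.9 CPM, and above them for Hlf and Rora.

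Of 10 other loop factors, 2 rose and none fell, where 3.44% of all tested genes rose and 2.99% fell. Rora, the gene for a nuclear receptor that activates Arntl at ROR elements, rose to 183, 194, 151 and 177 CPM in knockouts, against 130, 110, 142 and 130 CPM in controls (0.46 ± 0.11, edgeR adjusted p = 0.0305). The groups did not overlap. Rora also marks the thalamus, and 6 other thalamic markers summed to 95.99 to 128 CPM in knockouts and 92.02 to 120 CPM in controls, ranges that overlap. That sum is set by the abundant markers, and 1 of the 6, Shox2, rose, at 1.09 to 3.34 CPM in knockouts and 0 to 0.219 CPM in controls (edgeR adjusted p = 0.00521). Whether thalamic tissue plays a part in the level of Rora was not tested. Ciart (CHRONO), a repressor of the BMAL1 and CLOCK pair, rose to 17.2, 18.5, 10.4 and 19.5 CPM in knockouts, against 10.6, 9.35, 7.61 and 10.6 CPM in controls. Knockout 4 stood within the control range of Ciart (0.78 ± 0.20, edgeR adjusted p = 0.0351). The RNA-binding protein gene Sfpq (-0.54 ± 0.18, adjusted p = 0.0934) did not pass. Rora did not pass without knockout 2 or 5 or control 1 or 2 (adjusted p from 0.0718 to 0.115), nor Ciart without knockout 2, 3 or 5 or control 1, 2 or 3 (adjusted p from 0.0501 to 0.118).

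Of 17 tested kinases, ubiquitin ligases and other enzymes that set the stability of clock proteins, 1 rose and none fell, a share near the 3.44% of all tested genes that rose. Csnk1a1, the gene for casein kinase 1 alpha, was at 262, 301, 237 and 253 CPM in knockouts and 185, 209, 201 and 218 CPM in controls, without overlap (0.38 ± 0.10, edgeR adjusted p = 0.0433). It did not pass without knockout 2, 3 or 5 or control 1, 2 or 3 (adjusted p from 0.0609 to 0.117). Csnk1d and Csnk1e, the casein kinase 1 genes best known for phosphorylating the Period proteins, were at 58.4 ± 2.19 and 178 ± 17.2 CPM in knockouts and 53.2 ± 3.66 and 204 ± 21.8 CPM in controls, and neither passed (adjusted p = 0.423 and 0.266). Csnk2a1 (0.53 ± 0.15, adjusted p = 0.0571), the AMP kinase gene Prkaa1 (-0.33 ± 0.10, adjusted p = 0.0725) and the NAD salvage gene Nampt (0.28 ± 0.10, adjusted p = 0.107) did not pass in edgeR either.

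**Figure D5:**
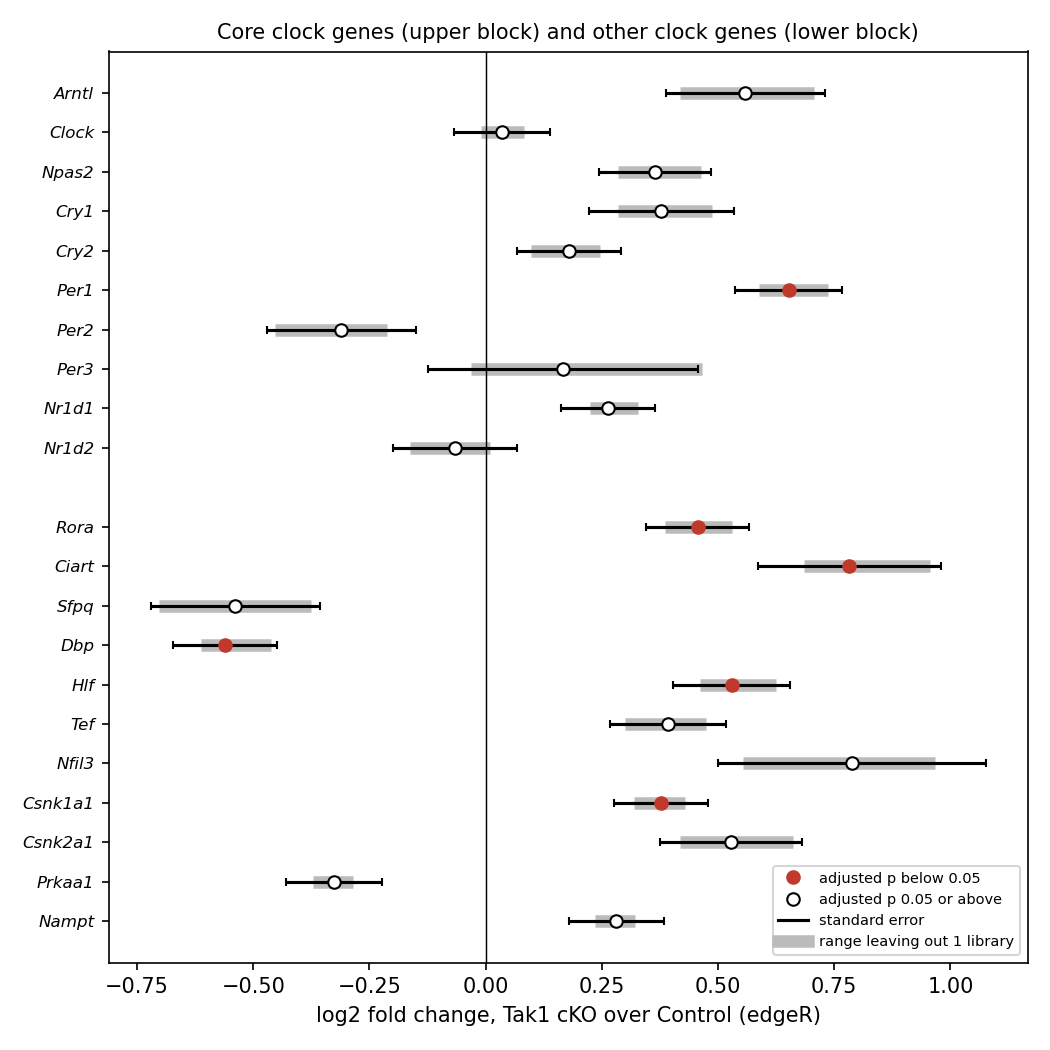
Log2 fold change (Tak1 cKO over Control, edgeR) of the 10 core clock genes in the upper block and of other clock genes in the lower block, chosen by the smallest p in each list; bars are the standard error, grey bands the range over the fits that leave out 1 library, and filled points passed an adjusted p of 0.05. Per1 is the filled point of the upper block, at 0.65, and Dbp, at -0.56, is the filled point below 0.

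Some genes varied between libraries much as single members did once the group means were taken out. Over 8 libraries and 10335 genes with at least 5 CPM, the highest Pearson r with Per1 was that of Rhou (0.94), with Per2 that of Map3k9 (0.96) and with Arntl that of Rab10os (0.98). With Clock it was Nr2e1 (0.98), with Nr1d1 it was Sesn1 (0.98) and with Cry1 it was Dixdc1 (0.96). These are the highest of many correlations over few libraries that share depth and composition, and are given as a description.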

How the data were processed

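Cortex RNA was sequenced by the authors in 8 libraries. Per the submitters' processing notes, the tools were FastQC, HISAT or HISAT2, featureCounts and DESeq2 on GRCm38, with no version; whether counting used strand is not given in the sources used here. The deposited table holds the authors' raw counts per gene and, per the file headers, the authors' DESeq2 results: a mean signal of counts divided by size factors, a log2 fold change of knockout over control with its error, a score (their ratio) and p-values. Of 29012 lines, 280 repeats of a gene ID were removed, leaving 28732 genes. Positions and merged exon lengths came from GENCODE M21 and promoter windows from RefSeq on GRCm38.p6.

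Genes were filtered with edgeR's filterByExpr (13168 removed), scaled by TMM and compared in edgeR by its robust quasi-likelihood F test without a covariate. Adjusted p-values are Benjamini-Hochberg over all 15564 genes. The log2 CPM values used for the correlations have a prior count of 2. The glucocorticoid response element was searched as its palindromic consensus. Paralog ratios used counts plus 0.5 and exact permutation tests. The members and all lists were chosen with earlier results of these data known. Named are the members, Map3k7 and Cdh5, the 4 genes of smallest p in each of 3 wider clock lists, and the genes most alike; Csnk1d and Csnk1e were chosen after their values were seen. One result from the wider lists is left out and not reported here. The procedure was tested on simulated data with 195 changed genes. Among those with the right estimated sign, it recovered 11.6% of 1.5-fold, 51% of 2-fold and 96% of 4-fold changes. Of its calls, 5.62% were false. A member that did not pass may therefore still have changed by an amount of this size. Alternatives covered scaling, filters, DESeq2, limma voom, a 1.2-fold threshold, a replicate block and each library left out. Software was Python 3.11.15 with scipy 1.17.1 and matplotlib 3.10.9, and R 4.3.3 with DESeq2 1.42.0, limma 3.58.1 and edgeR 4.0.16.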

Additional observations from a re-analysis of the deposited data

How the results depend on the processing

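The number of core clock genes called higher was 1 (Per1). It was 2 with no filter and with DESeq2 (Per1 and Arntl in both), 3 at an adjusted p of 0.1, 0 with the column number as a replicate block, and 0 to 4 when 1 library was left out, 0 without control 2 and 4 without knockout 4. No core clock gene was called lower under any alternative run, and none at an adjusted p of 0.1. The number of wider clock genes called was 5. It was 8 with DESeq2, 9 at an adjusted p of 0.1, 0 against a 1.2-fold change, 0 with the replicate block, and 0 to 9 when 1 library was left out. Over all genes 1001 were called, 1566 with no filter, 1766 with DESeq2, 2183 at an adjusted p of 0.1, 198 against a 1.2-fold change, 17 with the replicate block, and 128 to 2055 when 1 library was left out, lowest without control 2 and highest without knockout 4. The cause of these differences was not tested, beyond fewer libraries or a higher bar.

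The sign of 3 core clock genes turned when 1 library was left out, all far from the threshold. Clock ran from -0.011 without control 1 to 0.083 without knockout 5 and also turned without knockout 3 (-0.0024). Per3 ran from -0.031 without control 2 to 0.47 without control 3, and Nr1d2 from -0.16 without control 1 to 0.0102 without knockout 3. The other 7 core clock genes kept their sign in all 16 alternatives. Per1 passed in 14 of 16, with a log2 fold change of 0.59 to 0.74 and an adjusted p from 8.31e-05 to 0.12. The Per1/Per2 difference ran from 0.89 to 1.16 when 1 library was left out.

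The labels do not state whether equal column numbers pair the libraries, and the sample titles share no number between the groups. The correlation of deviations from the group means was 0.01 for number 2, -0.21 for number 3 and 0.22 for number 4. No correlations of libraries with unequal numbers were set beside these values, so they cannot decide the question. Knockout 5 and control 1 have no library of equal number in the other group. The fit with the replicate block therefore draws the group difference from numbers 2, 3 and 4 alone and leaves few degrees of freedom. In it Per1 had a log2 fold change of 0.64 and an adjusted p of 0.12. Per3, with 32 to 100 counts a library, is the member whose depth limits it most.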
